A study of Mus musculus with 12 samples.

Results

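Erythroid genes were examined in RNA of mouse bone marrow LSK cells. They are 9 named genes of 55487 in the gene tables: the transcription factor genes Klf1, Gata1 and Gfi1b, the erythropoietin receptor gene Epor, the carbonic anhydrase genes Car1 and Car2, the transferrin receptor gene Tfrc, the red cell surface protein gene Ermap and the globin gene Hba-a1. They were chosen by name as regulators and products of the erythroid line, and all 9 were among the 16649 genes that passed the filter on low counts. LSK cells lack lineage markers on their surface and carry Sca1 and c-Kit, and they hold stem cells and early progenitors. There were 4 libraries from Yy1+/+ mice, the wild-type control, 4 from Yy1-/- mice and 4 from Yy1-/- Smc3+/- mice. Yy1 encodes the zinc finger protein Yin Yang 1, and the product of Smc3 is part of cohesin, the ring complex that holds DNA in loops and sister chromatids together. No treatment, age, sex, strain, Cre driver or way of deleting Yy1 is given in the sources used here, and nothing there says whether each library is a separate mouse.

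Red blood cells arise from stem cells through progenitors that first share the megakaryocyte fate. GATA1 binds GATA motifs in nearly every erythroid gene, and its loss stops red cell formation. KLF1 binds CACCC-type motifs and activates globin, haem and membrane genes, while GFI1B is a repressor that red cells and platelets both need. Erythropoietin acts through EPOR and the kinase JAK2 to keep progenitors alive, transferrin receptor brings in the iron for haem, and carbonic anhydrases let red cells carry carbon dioxide. Several of these genes are not specific to red cell precursors: Gata1 and Gfi1b are also active in megakaryocytes, Car2 in many tissues, and Tfrc in all dividing cells.

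The promoter sequences below are shown because Klf1, Gata1, Epor, Gfi1b and Ermap were lower together in the Yy1-/- groups while Hba-a1 was not. RefSeq windows of 300 bases (250 before to 50 after the start site, build GRCm38.p6, the build of the files' mm10) were matched by symbol for 7 of the 9 genes. Car1 and Car2 had no window, and the windows of Tfrc were searched but are not printed. Each sequence reads 5′ to 3′ on the strand of its gene. Capitals mark matches on either strand to the GATA motif (AGATAA or TGATAA) or to the KLF motif (CCNCNCCC), which may overlap.
Klf1, chr8:84901732-84902031, plus strand: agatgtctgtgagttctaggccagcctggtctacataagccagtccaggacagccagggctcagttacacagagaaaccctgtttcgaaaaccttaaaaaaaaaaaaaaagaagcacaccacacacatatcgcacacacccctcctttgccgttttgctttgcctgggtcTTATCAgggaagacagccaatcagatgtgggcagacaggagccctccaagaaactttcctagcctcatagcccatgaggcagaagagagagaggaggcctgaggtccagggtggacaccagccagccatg
Gata1, chrX:7967861-7968160, minus strand: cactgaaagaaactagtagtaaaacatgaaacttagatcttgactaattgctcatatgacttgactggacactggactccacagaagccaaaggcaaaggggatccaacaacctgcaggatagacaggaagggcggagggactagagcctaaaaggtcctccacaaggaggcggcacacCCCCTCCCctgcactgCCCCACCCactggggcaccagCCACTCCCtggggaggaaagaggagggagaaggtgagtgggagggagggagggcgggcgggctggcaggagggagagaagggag
Epor, chr9:21963527-21963826, minus strand: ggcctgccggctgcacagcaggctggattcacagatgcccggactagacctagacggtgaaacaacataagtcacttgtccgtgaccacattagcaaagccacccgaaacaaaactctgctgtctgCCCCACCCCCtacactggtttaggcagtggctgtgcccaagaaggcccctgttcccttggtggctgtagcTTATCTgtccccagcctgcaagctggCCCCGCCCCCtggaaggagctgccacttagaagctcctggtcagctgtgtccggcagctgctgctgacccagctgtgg
Gfi1b, chr2:28621933-28622232, minus strand: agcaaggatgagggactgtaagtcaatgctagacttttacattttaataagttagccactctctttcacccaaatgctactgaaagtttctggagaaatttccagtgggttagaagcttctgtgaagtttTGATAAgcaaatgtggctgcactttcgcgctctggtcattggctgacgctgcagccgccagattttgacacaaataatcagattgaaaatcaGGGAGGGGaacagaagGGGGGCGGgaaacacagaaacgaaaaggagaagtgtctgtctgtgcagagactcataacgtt
Ermap, chr4:119189946-119190245, minus strand: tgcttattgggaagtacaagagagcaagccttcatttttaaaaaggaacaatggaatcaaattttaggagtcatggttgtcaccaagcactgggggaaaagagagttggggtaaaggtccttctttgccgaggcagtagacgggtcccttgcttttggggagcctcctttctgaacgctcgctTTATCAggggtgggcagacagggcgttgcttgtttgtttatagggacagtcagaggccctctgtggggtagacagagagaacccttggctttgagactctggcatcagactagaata
Hba-a1, chr11:32283422-32283721, plus strand: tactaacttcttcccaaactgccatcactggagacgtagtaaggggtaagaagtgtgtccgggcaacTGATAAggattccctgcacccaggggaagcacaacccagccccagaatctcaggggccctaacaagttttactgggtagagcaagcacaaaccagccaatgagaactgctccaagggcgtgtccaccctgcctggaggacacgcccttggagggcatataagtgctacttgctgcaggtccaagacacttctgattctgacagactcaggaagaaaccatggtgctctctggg
A GATA match was present for 5 of the 7 genes (Klf1, Epor, Gfi1b, Ermap and Hba-a1), against 18.6% of all 32851 RefSeq windows of this length. A KLF match was present for 4 of the 7 (Gata1, Epor, Gfi1b and Tfrc), against 49.5% of all windows. The CCAAT box (CCAAT) was present for 5 of the 7, against 37.4%, and the YY1 motif (AANATGGC) for 0 of the 7, against 6.05%. Tfrc had a pair of windows, counted as 1 gene. The printed window of Gata1 lies inside the annotated span of the gene (X:7959260-7978071), at a start site downstream of the outermost one. A match of letters is a description and no measure of binding.

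The libraries held between 38671354 and 69086104 summed counts. Yy1 was at 33.9 to 41.3 CPM (the count per library, brought to the same size of library by TMM) in Yy1+/+, at 0.407, 0.996, 5.01 and 12.2 in Yy1-/- replicates 1 to 4, and at 0.772, 0.795, 4.45 and 0.944 in Yy1-/- Smc3+/- replicates 1 to 4. Yy1 reads therefore remained in every library labelled Yy1-/-, and most in Yy1-/- replicates 3 and 4 and Yy1-/- Smc3+/- replicate 3. The members' results that rest on these 3 libraries are also given without them, an alternative chosen after seeing the data. That fit keeps only replicates 1 and 2 of Yy1-/- and replicates 1, 2 and 4 of Yy1-/- Smc3+/-. The 3 libraries are also the highest of the Yy1-/- groups for Klf1, Gata1, Car1 and Ermap. For these genes, and for any other gene highest in the libraries left out, that fit deepens the fall by construction. Its p-values for such genes, and counts that rest on them, are no separate support. No loss of Smc3 mRNA was seen beside the Smc3+/- label: the level was 159.7 to 214.2 CPM in Yy1+/+, 199.8 to 305.7 in Yy1-/- and 254.2 to 344.4 in the libraries labelled Yy1-/- Smc3+/-. The files give no other check of that label. Of the markers of the sort, Ly6a (Sca1) was at 150.3 to 379.8 CPM across all 12 libraries, while Kit (c-Kit) was at 421.5 to 981.2 CPM in Yy1+/+ and at 100.1 to 372.6 in the others. Kit fell in both Yy1-/- groups (log2 fold changes -2.12 and -1.65, edgeR adjusted p = 0.000455 and 0.00246). In bulk RNA of sorted cells, here and for every gene below, fewer cells of a type and less RNA per cell cannot be told apart.

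In Yy1+/+ LSK cells the erythroid genes were led by the carbonic anhydrases. On the TPM scale, which corrects for gene length, Car2 had a level of 1368.7 ± 121.7 (SD, n = 4) and Car1 689.5 ± 347.7. Gfi1b (106.4 TPM), Klf1 (69.2), Gata1 (43.8), Hba-a1 (30.7), Epor (24.6), Tfrc (17.7) and Ermap (13.1) followed. The libraries of Car2 and Car1, and of Car1 and Gfi1b, did not overlap, while each later neighbour in this order overlapped the next. In Yy1-/- the order of the mean levels was Car2 (169.2 TPM), Hba-a1, Car1, Gfi1b, Tfrc, Klf1, Gata1, Epor and Ermap (1.7). Only Epor and Ermap were neighbours without overlap there, and none were in Yy1-/- Smc3+/-, where Car2 was at 177.2 TPM and Ermap at 0.71.

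Most of the erythroid genes were lower in both Yy1-/- groups than in Yy1+/+, with a spread between libraries that kept several from passing the test. In Yy1-/-, 3 of 9 fell (Gata1, Car2 and Gfi1b) and 0 rose, where 18.8% of all 16649 tested genes fell and 35.2% passed in either direction (edgeR quasi-likelihood test, Benjamini-Hochberg adjusted p under 0.05 over all tested genes). In Yy1-/- Smc3+/-, 5 of 9 fell (Gata1, Epor, Car2, Gfi1b and Ermap) and 0 rose, where 16.7% of all tested genes fell and 29.9% passed in either direction. For 7 of the 9, all but Tfrc and Hba-a1, every library of either Yy1-/- group lay below every Yy1+/+ library, against 17.5% of all tested genes in Yy1-/- and 17.6% in Yy1-/- Smc3+/-. None of the 9 lay above every Yy1+/+ library, against 13.4% and 14.7% of all tested genes. The median log2 fold change of the 9 was -2.06 and -2.41, against 0.01 and 0.02 over all tested genes. Both comparisons use the same Yy1+/+ libraries. Without the 3 libraries with residual Yy1 reads 6 of 9 fell in Yy1-/- and 7 of 9 in Yy1-/- Smc3+/-, where 15.05% and 14.97% of the 17645 genes tested in that fit fell. The Yy1-/- libraries kept there, replicates 1 and 2, had the highest summed levels of 15 monocyte and macrophage genes (9962.0 and 7082.0 CPM). In Yy1+/+ these sums were 605.0 to 1488.0 CPM. The part of such cells in any result of that fit, here and below, was not tested.

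**Figure D1:**
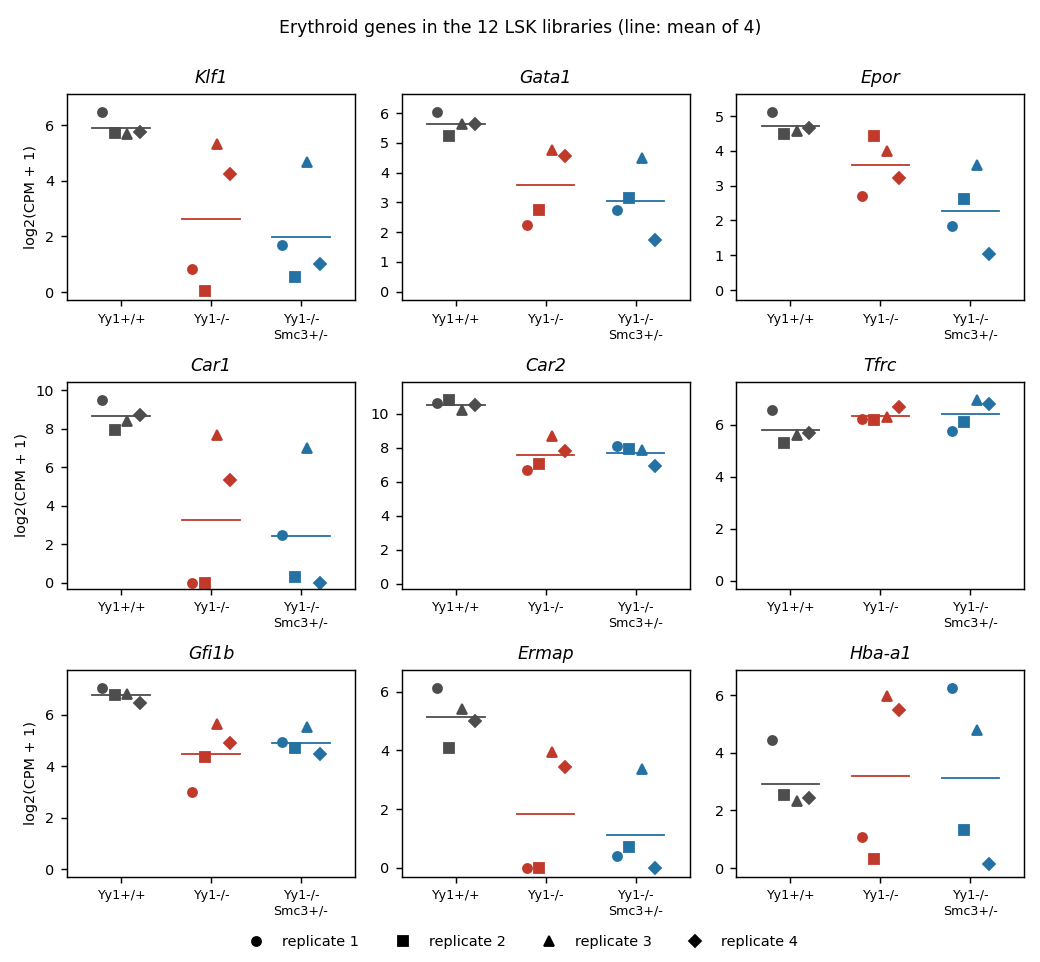
Level of each erythroid gene in the 12 libraries, as log2(CPM + 1) on the vertical axis, by genotype; each point is a library, its shape the replicate number, and each line the mean of 4. The Yy1-/- and Yy1-/- Smc3+/- points lie below all Yy1+/+ points in 7 of the 9 panels, and replicate 3 is the highest library of each Yy1-/- group for Klf1, Gata1, Car1, Gfi1b and Ermap.

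**Figure D2:**
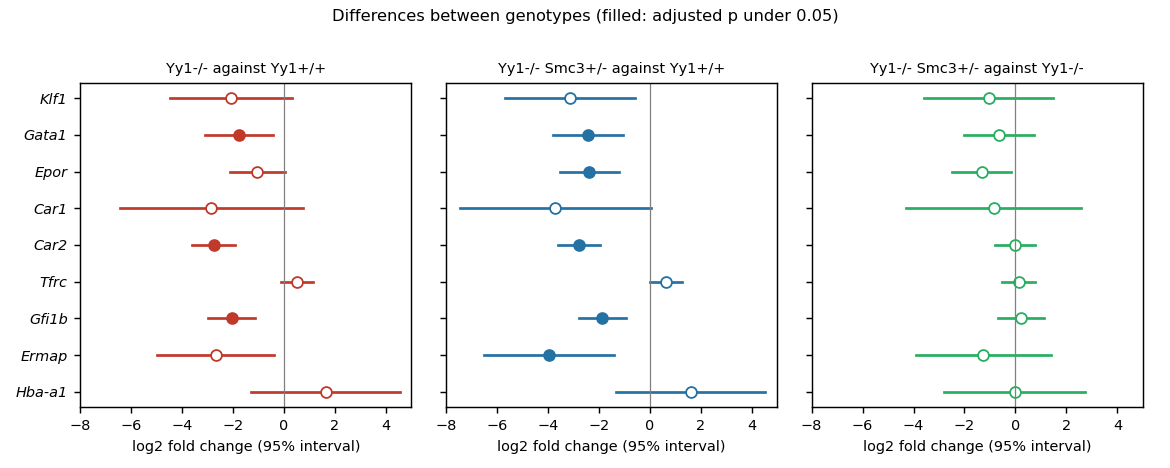
Log2 fold change of each gene (horizontal axis) in the 3 comparisons, as points with 95% intervals from the edgeR model; filled points passed the test. Against Yy1+/+ there are 3 filled points in Yy1-/- and 5 in Yy1-/- Smc3+/-, and there are 0 where the Yy1-/- groups are compared.

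Klf1 (ENSMUSG00000054191.8, chr8:84901928-84905291), the activator of late erythroid genes, had 87.9, 51.5, 50.6 and 53.0 CPM in Yy1+/+ replicates 1 to 4. In Yy1-/- it had 0.788, 0.0199, 39.1 and 17.9 CPM, and in Yy1-/- Smc3+/- 2.23, 0.468, 24.6 and 0.993 CPM. The groups did not overlap with Yy1+/+, but Yy1-/- replicates 3 and 4 and Yy1-/- Smc3+/- replicate 3 kept much more Klf1 mRNA than the other libraries of their groups. The log2 fold change was -2.07 ± 1.11 (SE, edgeR adjusted p = 0.163) in Yy1-/- and -3.13 ± 1.18 (edgeR adjusted p = 0.0618) in Yy1-/- Smc3+/-, so neither passed. Without the 3 libraries with residual Yy1 reads Klf1 fell in both, by log2 fold changes of -7.41 (edgeR adjusted p = 9.34e-05) and -5.65 (7.01e-05). Leaving out Yy1-/- Smc3+/- replicate 3 alone gave -5.6 in that group (edgeR adjusted p = 0.00985), and leaving out Yy1-/- replicate 3 alone gave -3.34 in Yy1-/- (0.0604). In Yy1-/- Smc3+/- Klf1 also passed without Yy1-/- replicate 1 (0.0456), 2 (0.0346) or 3 (0.0476) and in a fit of that group and Yy1+/+ alone (0.0231). On log2(TPM + 1), limma put Klf1 past the test in both groups (adjusted p = 0.0259 and 0.0137).

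Gata1 (ENSMUSG00000031162.14, chrX:7959260-7978071), the master regulator of the line, had 65.3, 36.5, 48.7 and 48.8 CPM in Yy1+/+. It had 3.76, 5.7, 26.4 and 22.7 CPM in Yy1-/- and 5.78, 7.88, 21.7 and 2.36 CPM in Yy1-/- Smc3+/-. The same 3 libraries were the highest of the Yy1-/- groups as for Klf1, and all stayed below the lowest Yy1+/+ library. The log2 fold changes of Gata1, which fell in both, were -1.77 ± 0.61 (SE) in Yy1-/- and -2.41 ± 0.64 in Yy1-/- Smc3+/-, at edgeR adjusted p = 0.0389 and 0.0124. The call in Yy1-/- was lost with edgeR's earlier quasi-dispersion method (adjusted p = 0.0699) and without Yy1+/+ replicate 1 (0.0899), 3 (0.0624) or 4 (0.0667) or Yy1-/- replicate 1 (0.0823) or 2 (0.0905), in a range from 0.000457 to 0.0905. Without the 3 libraries with residual Yy1 reads the log2 fold changes were -3.41 in Yy1-/- and -3.26 in Yy1-/- Smc3+/-.

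Gfi1b (ENSMUSG00000026815.14, chr2:28609450-28621982), the repressor of red cell and platelet precursors, had 129.3, 108.5, 109.2 and 87.1 CPM in Yy1+/+. The levels were 6.91, 19.2, 49.3 and 28.8 CPM in Yy1-/- and 29.6, 24.7, 44.8 and 20.9 CPM in Yy1-/- Smc3+/-. No library of the Yy1-/- groups reached the lowest Yy1+/+ library (87.1 CPM), and the highest of them was at 49.3 CPM. Gfi1b fell 4.16-fold in Yy1-/- (log2 fold change -2.06 ± 0.43 standard error, edgeR adjusted p = 0.00261) and 3.62-fold in Yy1-/- Smc3+/- (-1.86 ± 0.42, edgeR adjusted p = 0.00554).

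Of 18 erythroid regulator genes, the above 3 included, 12 fell and 0 rose in Yy1-/-, and 12 fell and 0 rose in Yy1-/- Smc3+/-. The median log2 fold changes were -1.14 and -1.05. For this and every list below, the shares of all tested genes that fell and rose were 18.8% and 16.3% in Yy1-/-. In Yy1-/- Smc3+/- they were 16.7% and 13.1%. Lmo2, the bridging protein of the GATA1 complex, had 696.9 to 950.0 CPM in Yy1+/+, 360.1 to 388.0 in Yy1-/- and 358.0 to 410.6 in Yy1-/- Smc3+/-. It fell by log2 fold changes of -1.13 ± 0.11 (SE, edgeR adjusted p = 2.48e-05) and -1.15 ± 0.11 (2.41e-05), with little spread between libraries of a group. Gata2, the GATA factor of stem and progenitor cells, fell from 262.3 to 368.6 CPM in Yy1+/+ to 49.1 to 81.9 in Yy1-/- and 51.0 to 118.0 in Yy1-/- Smc3+/- (-2.13 and -1.83, edgeR adjusted p = 4.19e-05 and 0.000125). Nfe2, a factor of the globin loci and of platelet formation, fell by -1.13 and -1.11 (edgeR adjusted p = 6.67e-05 and 8.83e-05). Zbtb7a, a repressor of fetal globin, did not pass in either comparison (0.15 and -0.03), and was chosen after its values were seen.

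Epor (ENSMUSG00000006235.6, chr9:21958897-21963506), the receptor that keeps erythroid progenitors alive, had 34.0, 21.5, 22.7 and 24.4 CPM in Yy1+/+. In Yy1-/- it had 5.49, 20.4, 14.9 and 8.36 CPM, and in Yy1-/- Smc3+/- 2.58, 5.1, 11.1 and 1.04 CPM. Yy1-/- replicate 2 came close to the lowest Yy1+/+ library, and it is a library with nearly no Klf1, so Epor did not follow Klf1 there. Epor fell in Yy1-/- Smc3+/- (log2 fold change -2.38 ± 0.54 standard error, edgeR adjusted p = 0.00519) and did not pass in Yy1-/- (-1.05 ± 0.5, 95% interval -2.12 to 0.02, edgeR adjusted p = 0.116). Between the Yy1-/- groups the log2 fold change of Epor was -1.33, with an interval of -2.5 to -0.16 and an edgeR adjusted p of 0.756, so the fall in 1 comparison and not in the other is not shown to be a difference.

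Of 10 genes of Epo receptor signalling, 4 fell in Yy1-/- (Jak2, Stat5a, Stat5b and Cish) and 3 rose (Lyn, Bcl2l1 and Ptpn6). In Yy1-/- Smc3+/- 4 fell (Epor, Jak2, Stat5a and Cish) and 1 rose (Bcl2l1). Of all tested genes 18.8% fell and 16.3% rose in Yy1-/-, and 16.7% and 13.1% did in Yy1-/- Smc3+/-. Those of these genes outside the naming rule were named because the counts are small. Cish, a feedback inhibitor that STAT5 induces, had 38.3 to 46.1 CPM in Yy1+/+, 13.3 to 27.7 in Yy1-/- and 14.9 to 16.2 in Yy1-/- Smc3+/-. It fell by log2 fold changes of -0.97 ± 0.2 (SE, edgeR adjusted p = 0.00279) and -1.41 ± 0.21 (0.000301). Jak2, the kinase bound to the receptor, fell by -0.73 and -0.71 (edgeR adjusted p = 0.00324 and 0.00476). Lyn, a kinase of many myeloid cells, rose by 1.2 ± 0.27 in Yy1-/- (edgeR adjusted p = 0.00379), with 373.8 and 246.0 CPM in replicates 1 and 2 and 136.0 and 137.9 in replicates 3 and 4. The macrophage gene C1qb had 2206.3, 1539.9, 9.34 and 74.0 CPM in the same 4 libraries. Whether such cells have a part in the level of Lyn was not tested.

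Car2 (ENSMUSG00000027562.12, chr3:14886273-14900770), a fast carbonic anhydrase of many tissues that is present early in the erythroid line, had 1539.7, 1756.1, 1169.3 and 1453.6 CPM in Yy1+/+. The levels were 103.1, 131.9, 406.1 and 225.4 CPM in Yy1-/- and 272.6, 238.5, 234.9 and 117.8 CPM in Yy1-/- Smc3+/-. The highest of these 8 libraries lay far below the lowest Yy1+/+ library. Car2 fell 6.83-fold in Yy1-/- (log2 fold change -2.77 ± 0.39 standard error, edgeR adjusted p = 0.000198) and 6.85-fold in Yy1-/- Smc3+/- (-2.78 ± 0.39, edgeR adjusted p = 0.000225). It had the smallest p of the 9 genes in both comparisons and kept its call in all alternatives.

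Car1 (ENSMUSG00000027556.15, chr3:14766216-14808368), the carbonic anhydrase of red cells, lies 77904 bases from Car2 on the same chromosome. Its annotated span overlaps the pseudogene Gm16399, which had 0 counts in all libraries. Car1 had 718.2, 249.2, 338.2 and 424.1 CPM in Yy1+/+. It had 0, 0, 200.8 and 39.7 CPM in Yy1-/- and 4.67, 0.257, 128.0 and 0 CPM in Yy1-/- Smc3+/-, so each group held at least 1 library at 0 counts and 1 library far above the rest. The 0 counts of Yy1-/- replicates 1 and 2 allow up to 3 counts over the pair, or 0.0335 CPM, so these libraries were at least 12903.1-fold below the Yy1+/+ mean of 432.4 CPM, a bound that covers counting error only. With the high libraries in the group the log2 fold change was -2.85 ± 1.66 (SE, edgeR adjusted p = 0.202) in Yy1-/- and -3.71 ± 1.73 (edgeR adjusted p = 0.124) in Yy1-/- Smc3+/-. Without Yy1-/- Smc3+/- replicate 3 it was -7.99 in that group (edgeR adjusted p = 0.0146), and without Yy1-/- replicate 3 it was -5.07 in Yy1-/- (0.0674). With the 3 libraries with residual Yy1 reads left out, Car1 fell in Yy1-/- (edgeR adjusted p = 0.000424, with the bound above as its size) and in Yy1-/- Smc3+/- (-8.04, 0.000344). On log2(TPM + 1) limma gave adjusted p = 0.0276 and 0.0176, so Car1 passed there in both groups.

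Of 16 carbonic anhydrase genes 11 were tested, the other 5 being under the filter. In Yy1-/- 3 fell (Car2, Car3 and Car11) and in Yy1-/- Smc3+/- 4 fell (Car2, Car3, Car11 and Car13), with 0 that rose in either. Car3 (chr3:14863512-14872523) lies between Car1 and Car2, and Car13 (chr3:14641727-14663002) on the far side of Car1. Car3 was far below Car1 and Car2 in Yy1+/+ but above Car1 in the 4 libraries with the least Car1, at 4.96 to 8.34 CPM in Yy1+/+, 0.697 to 4.02 in Yy1-/- and 1.32 to 3.32 in Yy1-/- Smc3+/-. It fell by log2 fold changes of -1.42 and -1.37 (edgeR adjusted p = 0.0253 and 0.0356). Car13 had 4.53 to 5.53 CPM in Yy1+/+, 6.1, 2.21, 2.74 and 2.24 CPM in Yy1-/- and 1.17 to 1.76 in Yy1-/- Smc3+/-. It passed in Yy1-/- Smc3+/- (-1.81 ± 0.37, edgeR adjusted p = 0.00298) and not in Yy1-/- (-0.64, 0.151), and the Yy1-/- groups did not differ by the test (0.756). The highest Car13 value of all 12 libraries was in Yy1-/- replicate 1, a library with 0 counts of Car1.

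Tfrc (ENSMUSG00000022797.16, chr16:32608920-32632794), the transferrin receptor that dividing cells use to take up iron, was not lower in the Yy1-/- groups. It had 93.1, 38.3, 47.8 and 49.9 CPM in Yy1+/+, 73.2, 72.2, 78.8 and 102.2 in Yy1-/- and 53.5, 68.0, 122.8 and 110.2 in Yy1-/- Smc3+/-. Yy1+/+ replicate 1 lay well above the other 3 Yy1+/+ libraries, which were all below every other library. The log2 fold change was 0.51 ± 0.3 (SE, 95% interval -0.13 to 1.15, edgeR adjusted p = 0.199) in Yy1-/- and 0.63 ± 0.3 (-0.01 to 1.27, edgeR adjusted p = 0.128) in Yy1-/- Smc3+/-. Without Yy1+/+ replicate 1 Tfrc rose in both, by 0.85 (edgeR adjusted p = 0.0333) and 0.97 (0.0229).

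Of 14 genes of iron uptake and handling, 1 fell in Yy1-/- (Tfr2) and 2 rose (Pcbp2 and Slc40a1), and in Yy1-/- Smc3+/- 2 fell (Tfr2 and Slc11a2) and 1 rose (Pcbp2). These counts lie under the shares over all tested genes (18.8% fell and 16.3% rose in Yy1-/-, 16.7% and 13.1% in Yy1-/- Smc3+/-). Tfr2, the transferrin receptor that senses iron and binds EPOR in erythroid cells, was lower in both Yy1-/- groups. It had 199.7 to 221.9 CPM in Yy1+/+, 26.6 to 80.7 in Yy1-/- and 35.5 to 62.2 in Yy1-/- Smc3+/-, and fell by log2 fold changes of -2.07 ± 0.3 (SE, edgeR adjusted p = 0.000261) and -2.12 ± 0.3 (0.000257). Slc40a1, the iron exporter ferroportin, rose in Yy1-/- (3.14 ± 1.1, edgeR adjusted p = 0.0398), with 154.6, 469.2, 5.7 and 32.4 CPM in replicates 1 to 4 against 13.3 to 26.6 in Yy1+/+. The rise sat in replicates 1 and 2, the libraries with the most C1qb (2206.3 and 1539.9 CPM), and the part of macrophage RNA in it was not tested.

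Of 16 genes of haem synthesis and transport, 2 fell in Yy1-/- (Urod and Fech) and 2 rose (Flvcr1 and Hmox1). In Yy1-/- Smc3+/- 6 fell and 1 rose (Flvcr1). Only the 6 that fell in Yy1-/- Smc3+/- exceed the share over all tested genes. Those shares were 18.8% lower and 16.3% higher in Yy1-/-, and 16.7% and 13.1% in Yy1-/- Smc3+/-. Urod, an enzyme of the middle of the pathway, fell by log2 fold changes of -0.6 ± 0.14 (SE, edgeR adjusted p = 0.00578) and -0.94 ± 0.14 (0.000392), and Fech, which inserts the iron, by -0.63 in both (edgeR adjusted p = 0.00786 and 0.00982). Flvcr1, a haem exporter, rose by 0.99 and 1.05 (edgeR adjusted p = 0.00348 and 0.00296). Hmox1, which breaks haem down, had 221.1, 187.2, 6.11 and 17.1 CPM in Yy1-/- replicates 1 to 4 and 3.04 to 11.7 in Yy1+/+, and was named because the count is small. Like Slc40a1, it was high in the pair of libraries with the most C1qb. The erythroid isoenzyme Alas2 starts the pathway and was chosen after its values were seen. It had 0 to 0.564 CPM in Yy1+/+, 0 to 2.87 in Yy1-/- and 0 to 3.86 in Yy1-/- Smc3+/-. Alas2 passed in neither comparison, with a log2 fold change of 3.11 in Yy1-/- (edgeR adjusted p = 0.127).

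**Figure D3:**
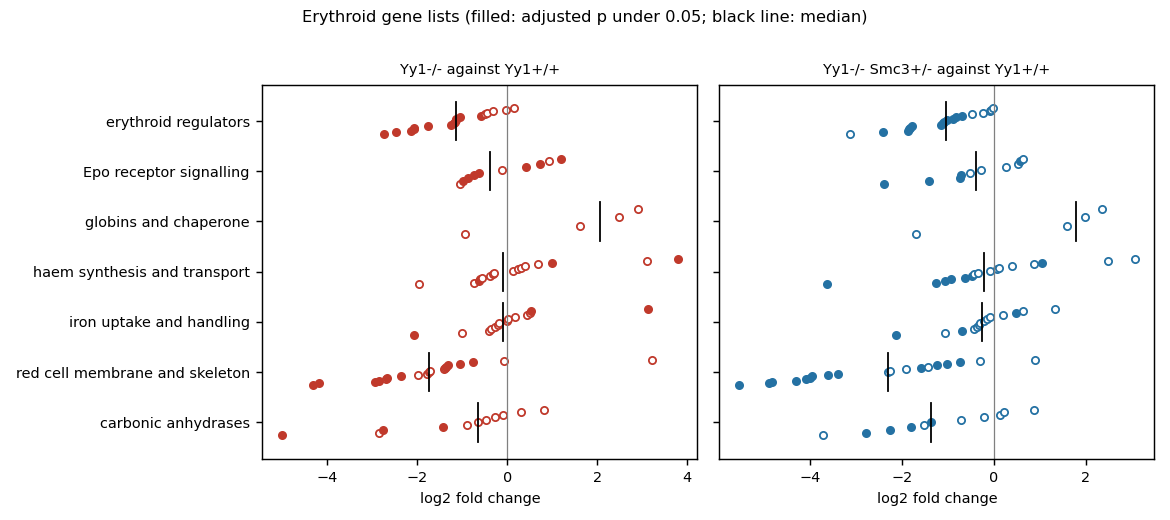
Log2 fold change (horizontal axis) of every tested gene of the 7 erythroid lists against Yy1+/+, the 9 genes included; filled points passed the edgeR test and black lines are medians. The lists of regulators and of the red cell membrane have medians of -1.14 and -1.74 in Yy1-/- and of -1.05 and -2.3 in Yy1-/- Smc3+/-, while the medians of the haem and iron lists lie between -0.25 and -0.09.

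Over all 7 lists, 92 of 106 genes were tested, 11 being under the filter and 3 not analysed here (Hbb-b1, Hbb-b2 and Ahsp). In Yy1-/- 32 fell and 7 rose, and in Yy1-/- Smc3+/- 41 fell and 3 rose, where 16.3% and 13.1% of all tested genes rose. Without the 3 libraries with residual Yy1 reads 41 fell and 6 rose in Yy1-/- and 45 fell and 5 rose in Yy1-/- Smc3+/-. With all libraries the median log2 fold changes were -0.61 and -0.71. On the log2(TPM + 0.1) scale, where the median of all genes lies at -0.26, limma gave 47 that fell and 1 that rose in Yy1-/-, and for all genes 4226 and 1489 against 3132 and 2722 with edgeR.

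Ermap (ENSMUSG00000028644.16, chr4:119175457-119190011), which encodes the carrier of the Scianna blood group, had 68.4, 15.9, 41.0 and 30.6 CPM in Yy1+/+. It had 0, 0, 14.4 and 9.81 CPM in Yy1-/- and 0.331, 0.632, 9.41 and 0 CPM in Yy1-/- Smc3+/-. The pattern over libraries was that of Klf1 and Car1, with the same 3 libraries high and the rest at or near 0. The 0 counts of Yy1-/- replicates 1 and 2 put them at least 1163.6-fold below the Yy1+/+ mean of 39.0 CPM, with 3 counts over the pair as the floor. Ermap fell in Yy1-/- Smc3+/- (log2 fold change -3.96 ± 1.19 standard error, edgeR adjusted p = 0.0232) and did not pass in Yy1-/- (-2.69 ± 1.07, edgeR adjusted p = 0.067). The call was lost with DESeq2 (adjusted p = 0.156), with edgeR's earlier quasi-dispersion method (0.134) and without Yy1+/+ replicate 1 (0.0591) or Yy1-/- Smc3+/- replicate 1 (0.0642), 2 (0.0627) or 4 (0.0657), in a range from 0.000234 to 0.156. Without Yy1-/- Smc3+/- replicate 3 the log2 fold change was -6.89. With the libraries holding residual Yy1 reads left out, Ermap fell in Yy1-/- (edgeR adjusted p = 0.000339, with the bound above as its size) and in Yy1-/- Smc3+/- (-6.93, 0.000234). In Yy1-/- Ermap passed without Yy1-/- replicate 3 (-3.63, edgeR adjusted p = 0.0437), without Yy1-/- Smc3+/- replicate 3, which enters the shared spread (0.0337), and with limma on log2(TPM + 1) (adjusted p = 0.00717).

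Of 19 genes of the red cell membrane and its skeleton, Ermap included, 10 fell in Yy1-/- and 13 in Yy1-/- Smc3+/-, and 0 rose. Gypc, the glycophorin that anchors the skeleton and is also made outside the red cell line, had 134.9 to 165.7 CPM in Yy1+/+, 48.2 to 70.9 in Yy1-/- and 52.2 to 73.2 in Yy1-/- Smc3+/-. It fell by log2 fold changes of -1.35 ± 0.15 (SE, edgeR adjusted p = 4.13e-05) and -1.23 ± 0.15 (8.33e-05). Aqp1, the water channel of red cells, had 136.0, 17.4, 56.4 and 81.9 CPM in Yy1+/+, 0, 1.12, 8.62 and 4.97 in Yy1-/- and 1.54, 1.87, 6.72 and 0.373 in Yy1-/- Smc3+/-. It fell by -4.31 ± 0.87 (edgeR adjusted p = 0.00226) and -4.82 ± 0.91 (0.00176), and its 3 highest Yy1-/- libraries were again those with residual Yy1 reads. Rhag, the ammonia channel of the Rh complex and chosen after its values were seen, had 0.407, 0.618, 23.6 and 7.81 CPM in Yy1-/- and 21 to 40.8 in Yy1+/+. Yy1-/- replicate 3 thus lay within the Yy1+/+ range for Rhag, and Rhag did not pass in either comparison (edgeR adjusted p = 0.18 and 0.101). Rhag fell in both without the 3 libraries with residual Yy1 reads (log2 fold changes -5.72 and -4.45, edgeR adjusted p = 5.98e-05 and 4.65e-05). In that fit Aqp1 had log2 fold changes of -6.92 and -5.88, and 14 of 18 tested membrane genes fell in each comparison. The libraries left out are the highest of the Yy1-/- groups for Rhag and Aqp1. The fall of both genes there deepens by construction, and the p-values are no separate support.

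**Figure D4:**
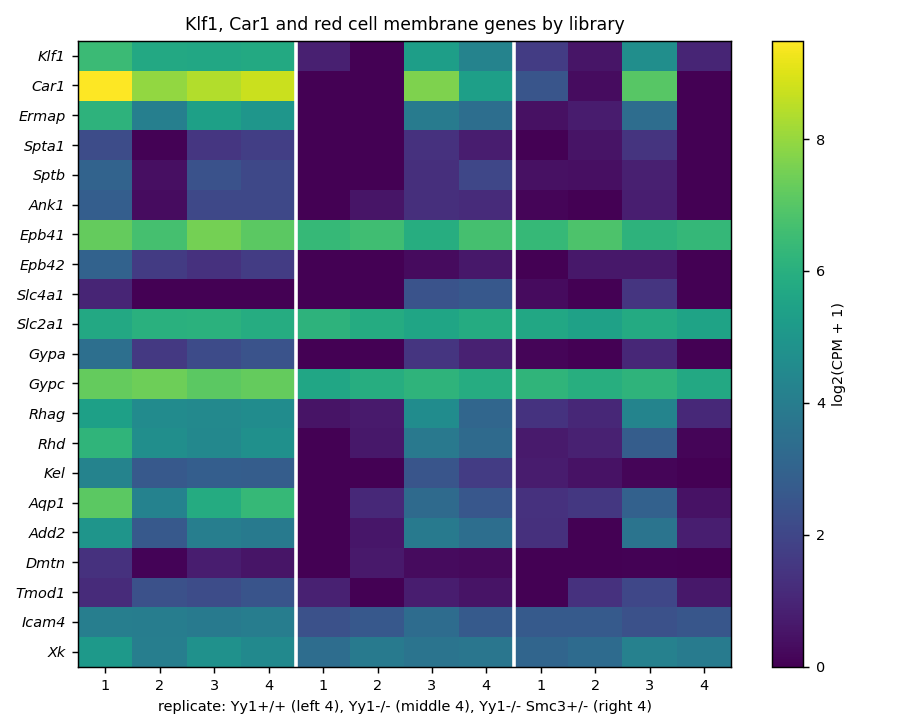
Levels of Klf1, Car1 and the 19 red cell membrane genes (rows) in the 12 libraries (columns, by genotype and replicate), coloured by log2(CPM + 1). Yy1-/- replicates 3 and 4 and Yy1-/- Smc3+/- replicate 3 are brighter than the other Yy1-/- libraries for Klf1, Car1, Ermap, Rhag, Rhd and Add2, while Epb41, Slc2a1 and Gypc are high in every library.

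Hba-a1 (ENSMUSG00000069919.7, chr11:32283511-32284465), an adult alpha globin gene, differed from the other 8 genes. It had 20.9, 4.78, 3.98 and 4.35 CPM in Yy1+/+, 1.09, 0.239, 60.9 and 43.9 in Yy1-/- and 74.7, 1.52, 27 and 0.0993 in Yy1-/- Smc3+/-. The Yy1-/- groups lay on both sides of Yy1+/+: 4 of their 8 libraries were above the highest Yy1+/+ library and 4 below the lowest. The log2 fold change of 1.63 ± 1.35 (SE, 95% interval -1.28 to 4.55, edgeR adjusted p = 0.37) in Yy1-/- and of 1.6 ± 1.35 (-1.31 to 4.51, edgeR adjusted p = 0.4) in Yy1-/- Smc3+/- therefore describes neither kind of library. Its sign turned on the log2(TPM + 1) scale (-0.26 and -0.31) and, in Yy1-/-, without the 3 libraries with residual Yy1 reads (-3.8). The deposited count of Hba-a1 was not a whole number (to within 1e-06) in 11 of 12 libraries, as for its near-identical copy Hba-a2, so the split of reads between these genes is uncertain.

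None of the other adult globin genes passed the test (0 of 4 tested globin genes, Hba-a1 included, in each comparison; 9 listed genes of globins and their chaperone were under the filter or not analysed here). Hbb-bt alone of the 4 fell in each when the 3 libraries with residual Yy1 reads were left out (log2 fold changes -3.41 and -1.75, edgeR adjusted p = 0.00729 and 0.0447). In Yy1-/- the libraries left out, replicates 3 and 4, were the highest for Hbb-bt, so its fall there deepens by construction. Hba-a2 and the beta globin gene Hbb-bs followed Hba-a1: Hbb-bs had 13.1, 2.56, 1.87 and 1.15 CPM in Yy1+/+, 0.915, 0.478, 82.7 and 57.1 in Yy1-/- and 68.4, 1.71, 26.6 and 0.0745 in Yy1-/- Smc3+/-. Hbb-bt, the other adult beta gene, was even in Yy1+/+ at 50.6 to 57.7 CPM, and had 4.04, 6.58, 62.2 and 44.2 CPM in Yy1-/- and 38, 8.73, 17.6 and 4.3 in Yy1-/- Smc3+/-. Reads of the beta genes are shared too, with counts that were not whole in all 12 libraries. The embryonic genes Hba-x and Hbb-bh1 had 0 counts in all libraries. Globin and Klf1 levels came apart in Yy1-/- Smc3+/- replicate 1, which had 74.7 CPM of Hba-a1, the most of all libraries, with 2.23 CPM of Klf1 and 0.772 CPM of Yy1. The sum of Hba-a1, Hba-a2 and Hbb-bs divided by the Klf1 level was 0.128 to 0.492 in Yy1+/+, 3.03, 59.0, 4.87 and 7.4 in Yy1-/- and 76.6, 7.85, 3.3 and 0.175 in Yy1-/- Smc3+/-. The value of 59.0 has nearly no Klf1 below the line (0.0199 CPM) and a globin sum of 1.18 CPM, so that library is not a globin-rich one. Whether RNA of mature red cells in the sorted sample has a part in this was not tested. Slc4a1, the band 3 gene of maturing red cells, and Alas2 were chosen after their values were seen. Slc4a1 had 4.33 and 5.16 CPM in Yy1-/- replicates 3 and 4 but 0.198 in Yy1-/- Smc3+/- replicate 1. Alas2 reached 2.87 CPM in Yy1-/- and 3.86 in Yy1-/- Smc3+/-, against at most 0.564 in Yy1+/+.

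**Figure D5:**
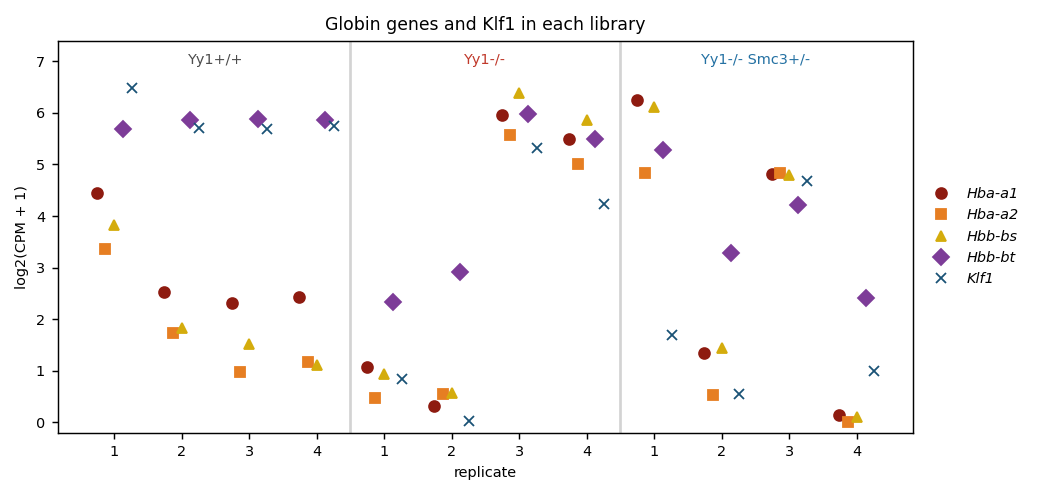
Levels of 4 adult globin genes and Klf1 as log2(CPM + 1) in each of the 12 libraries, by genotype and replicate. Hba-a1, Hba-a2 and Hbb-bs are higher in Yy1-/- replicates 3 and 4 and Yy1-/- Smc3+/- replicates 1 and 3 than in the other 8 libraries, while Klf1 is high in Yy1-/- replicate 3 and at 2.23 CPM in Yy1-/- Smc3+/- replicate 1.

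The comparison of Yy1-/- Smc3+/- with Yy1-/- addresses what the label Smc3+/- adds, but the groups were not alike in other ways. The mean level of residual Yy1 was 4.65 CPM in Yy1-/- and 1.74 in Yy1-/- Smc3+/- (edgeR adjusted p = 0.788). The sums of monocyte and macrophage genes reached 9962.0 CPM in Yy1-/- and 2347.0 in Yy1-/- Smc3+/-. The part of either in this comparison was not tested. None of the 9 genes passed (edgeR; 1 of 9, Epor, had an unadjusted p under 0.05, and 0 of 9 passed with DESeq2), where 0.036% of all tested genes passed in either direction. The intervals of the log2 fold change were narrow for Car2 (-0.79 to 0.78), Tfrc (-0.52 to 0.76) and Gfi1b (-0.7 to 1.11), so changes beyond these bounds lie outside the 95% intervals. They were wide for Klf1 (-3.57 to 1.46), Car1 (-4.31 to 2.58), Ermap (-3.92 to 1.38) and Hba-a1 (-2.81 to 2.74). A fall of several fold lies inside each of these wide intervals, as does a rise of several fold for Car1 and Hba-a1. Of the 92 tested genes of the erythroid lists 0 passed (edgeR; 7 at an unadjusted p under 0.05, and 0 with DESeq2). Without the 3 libraries with residual Yy1 reads 2 of the list genes were lower, Blvrb and Lyn, which were named because the count is small.

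Within the Yy1-/- groups the libraries were unequal in a shared way. Yy1-/- replicate 3 was the highest library of its group for 7 of the 9 genes (all but Epor and Tfrc), and Yy1-/- Smc3+/- replicate 3 for 7 of the 9 (all but Car2 and Hba-a1). Both hold residual Yy1 reads, at 5.01 and 4.45 CPM. The order did not follow Yy1 throughout: Yy1-/- replicate 4 had the most Yy1 (12.2 CPM) and less Klf1 (17.9 CPM) and Car1 (39.7 CPM) than replicate 3 (39.1 and 200.8 CPM). In Yy1+/+, replicate 1 was the highest library for 8 of the 9 genes, all but Car2.

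By likeness over the 12 libraries, measured as the root mean square difference of centred log2 CPM, the genes nearest to Klf1 were Atp1b2 (1.05), Cldn13 (1.19) and Slc38a5 (1.2), and Cldn13 (0.82) and Slc38a5 (0.88) were also nearest to Ermap, followed by Pklr (1.01), the red cell pyruvate kinase. Slc38a5, an amino acid transporter, had 18.7 to 34.1 CPM in Yy1+/+, 0, 0, 14.6 and 6.04 in Yy1-/- and 1.12, 0.117, 8.77 and 0 in Yy1-/- Smc3+/-. Car1 was nearest to Sphk1 (1.49), Slc38a5 (1.73) and Ermap (1.84). The genes were picked for likeness over these same libraries, so these distances only describe them. Gata1 was nearest to Hoxb2 (0.47), Abcb4 (0.51) and Hmgb3 (0.57), Epor to Pepd (0.61), Rab27b (0.69) and Tspan33 (0.7), and Gfi1b to Sqle (0.34), Rbm4b (0.35) and Phykpl (0.35). Car2 was nearest to Sdsl (0.21), Gstm5 (0.33) and Serpinf1 (0.34), and among the 9 genes to Gfi1b (0.54). Tfrc was nearest to Mdn1 (0.17), Selenoi (0.25) and Sbno1 (0.26), and Hba-a1 to the other globins Hbb-bs (0.73), Hba-a2 (0.81) and Hbb-bt (2.0).

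Markers of other blood cell types that use these regulators moved with the groups as well. The summed level of 17 megakaryocyte and platelet genes was 1061.0 to 1457.0 CPM in Yy1+/+, 392.9 to 450.1 in Yy1-/- and 261.2 to 440.4 in Yy1-/- Smc3+/-, and 8 of 16 tested fell in each Yy1-/- group. The sum of 9 eosinophil genes, a line that also uses Gata1, was 104.8 to 2001.0 CPM in Yy1+/+, 18.1 to 51.9 in Yy1-/- and 26.7 to 39.8 in Yy1-/- Smc3+/-, and 5 of 9 fell in each. Its marker Epx, an eosinophil granule peroxidase, had 19.5 to 589.1 CPM in Yy1+/+ and 0 counts in 7 of the 8 others. The mast cell and basophil list overlapped between groups, at 50.1 to 286.2, 68.8 to 149.0 and 77.1 to 197.0 CPM, but its genes went both ways. Of 10 tested, 2 fell and 4 rose in Yy1-/-, and 2 fell and 3 rose in Yy1-/- Smc3+/-. The basophil protease gene Prss34 fell from a mean of 68.2 CPM to 0.374 and 1.5, and the mast cell protease gene Cma1 rose from 0.155 to 12.7 and 13.3, each picked after seeing its values. The part of any of these cells in the fall of Gata1 or Gfi1b was not tested. Of 15 monocyte and macrophage genes 12 rose in Yy1-/- and 8 in Yy1-/- Smc3+/-, where 16.3% and 13.1% of all tested genes rose. The sums were 605.0 to 1488.0, 751.3 to 9962.0 and 892.4 to 2347.0 CPM in the 3 groups. Yy1-/- replicates 1 and 2 had 9962.0 and 7082.0 CPM, while replicates 3 and 4 (751.3 and 1184.0) lay inside the Yy1+/+ range. In Yy1-/- 4 of the 15 genes lay above every Yy1+/+ library, against 13.4% of all tested genes. In Yy1-/- Smc3+/- 5 of the 15 did, against 14.7%. The sums overlapped between groups for 13 neutrophil and granulocyte genes (2907.0 to 10888.0, 4638.0 to 7654.0 and 2114.0 to 17425.0 CPM), for 9 B cell genes (60.8 to 87.9, 63.0 to 80.7 and 66.7 to 116.8) and for 9 T and NK cell genes (154.7 to 319.6, 50.3 to 212.7 and 80.8 to 267.2). These sums are led by a few genes: of 8 tested T and NK cell genes 4 rose in each Yy1-/- group and 0 fell, and the T cell receptor genes Cd3e, Cd3g, Cd3d and Trac, chosen after their values were seen, were those that rose, to means of 1.57 to 6.75 CPM from 0.0273 to 0.46 in Yy1+/+. Of 8 tested B cell genes 1 rose in Yy1-/- and 3 in Yy1-/- Smc3+/-, and of 13 neutrophil and granulocyte genes 2 rose in Yy1-/-, and 1 rose and 1 fell in Yy1-/- Smc3+/-. Of 14 stem cell genes 13 fell in each Yy1-/- group, with sums of 2291.0 to 2565.0, 1061.0 to 1353.0 and 1057.0 to 1217.0 CPM. The exception was Cd34, an antigen of stem and progenitor cells, at 892.0 to 1157.9 CPM in all 12 libraries.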

How the data were processed

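Per the labels' protocols, LSK cells were sorted from bone marrow, RNA came from an RNeasy Micro kit and cDNA libraries from SMART-Seq V4 chemistry for low input. Per the submitters' processing notes, the authors used STAR 2.5.2b and RSEM 1.3.0 with build mm10. Their settings are not given in the sources used here. The deposited expected counts, so named per the file headers, are RSEM's estimates of reads per gene, where a read with several matches is shared out. The deposited TPM values correct for length, and the deposited FPKM values were not used. Identifiers were matched to GENCODE M21 (55094 with the same version, 300 with another, 93 not).

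The test on rounded counts was that of edgeR 4.0.16 (R 4.3.3), with filterByExpr (minimum count 10, total 15), TMM factors, 1 quasi-likelihood model of 3 genotypes, and Benjamini-Hochberg adjustment over 16649 genes. The design named no quasi-dispersion method. The default of this version, the earlier method, was run before edgeR's bias-adjusted one, and the bias-adjusted one, which gives the gene counts of an earlier analysis of these data, was chosen after both sets of calls had been seen. It makes 5854, 4975 and 6 calls in the 3 comparisons, against 5015, 4117 and 6, and the default ends the calls of Gata1 in Yy1-/- and of Ermap in Yy1-/- Smc3+/-; robust fitting, also tried, made 5834, 4943 and 6 calls with the chosen method and 5019, 4137 and 6 with the other. DESeq2 1.42.0 and limma 3.58.1 (pseudocounts 0.1 and 1 TPM) were alternatives.

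In the simulated Yy1-/- comparison of 16234 genes, 18.6% of 97 genes changed 2-fold and 60.6% of 94 changed 4-fold were recovered, with 7 false calls. Far fewer genes were changed there than the 5854 that passed in the data. The adjustment was therefore stricter, and these shares are not the recovery of the real comparison. The members, lists and tests were chosen with earlier results of these data known. Genes named are the 9 genes, Yy1, Smc3, Kit and Ly6a, up to 3 called genes of smallest p per list and comparison, family neighbours, the 3 genes most like each member (at least 5 CPM on average, prior count 2) and the top 2 genes of each list of other cell types; others are marked, and 1 gene that the rule names is not reported here. P-values measure the spread between libraries, which may be technical. Intervals (95%) come from the model, and floors of 3 counts cover counting error only, since PCR reads are not independent molecules.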

Additional observations from a re-analysis of the deposited data

Results flagged for a closer look

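In 7 of 39 groups tested (13 genes in 3 genotypes, 4 libraries each) a single library lay apart from the other 3 by more of the group's range than chance gives in about 1 of 20 groups. In Yy1+/+ these were Klf1 in replicate 1 (87.9 CPM, the others 50.6 to 53.0), Hba-a1 in replicate 1 (20.9, the others 3.98 to 4.78) and Yy1 in replicate 2 (41.3, the others 33.9 to 34.2). In Yy1-/- Smc3+/- replicate 3 was apart for Klf1 (24.6 CPM, the others 0.468 to 2.23), Car1 (128.0, the others 0 to 4.67), Ermap (9.41, the others 0 to 0.632) and Yy1 (4.45, the others 0.772 to 0.944). These 4 come from 1 library and are not independent of each other.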

How the results depend on the processing

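The 21 alternatives (19 planned, 12 of them leaving out a library, and 2 added after seeing the data) were limited by 4 libraries per group and by the depth: 3 counts are 0.0474 to 0.0776 CPM. The falls of Car2 and Gfi1b in both Yy1-/- groups, and of Gata1 and Epor in Yy1-/- Smc3+/-, kept direction and call in all of them. Against Yy1+/+, the number of the 9 genes that passed in Yy1-/- was 3, but 6 on log2(TPM + 0.1) and 7 on log2(TPM + 1), 6 when the 3 libraries holding Yy1 reads were left out (25.4%, 26.0% and 15.05% of all tested genes fell in these fits, against 18.8%), and 2 to 4 when 1 library was left out; in Yy1-/- Smc3+/- it was 5, and 4 to 7 when 1 was left out. Between the Yy1-/- groups 6 genes passed, but 53 with DESeq2 and 311 without the 3 libraries, which also gave 2 erythroid list genes in place of 0. The sign of Hba-a1 against Yy1+/+ turned on log2(TPM + 0.1) (-0.56 and -0.73) and log2(TPM + 1) (-0.26 and -0.31), and in Yy1-/- without the 3 libraries (-3.8). Between the Yy1-/- groups, where none of the 9 passed, Car2 turned to 0.02 with a minimum count of 30 and with only 2 genotypes, to 0.22 on both TPM scales and to 0.82 without the 3 libraries, which also turned Klf1 (1.76), Gata1 (0.16) and Hba-a1 (5.33). Leaving out 1 library gave ranges of -0.24 to 0.49 for Car2, -3.53 to 0.17 for Klf1, -5.14 to 1.32 for Car1, -1.49 to 0.78 for Hba-a1, -0.12 to 0.7 for Gfi1b and -0.08 to 0.3 for Tfrc. Fewer samples are part of each leave-out; otherwise the cause was not tested. No paired analysis was possible because the labels pair no libraries: replicate numbers follow accession order.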
